A study of Mus musculus with 120 samples.

Results

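Eicosanoid synthesis enzymes are the 10 genes Ptgs1, Ptgs2, Alox15, Alox5, Alox5ap, Hpgds, Ptgds, Ptges, Ltc4s and Tbxas1, taken by symbol from both count tables, in which all 10 were found among 55491 rows. They were measured by bulk RNA sequencing of immunological niches (INs), which are polycaprolactone scaffolds placed under the skin of female mice, colonized by host cells and removed in turn, with each removed scaffold replaced. NOR/LtJ mice, which share the diabetogenic H2g7 haplotype with NOD/ShiLtJ mice and do not become hyperglycemic, gave 23 samples of 5 mice, taken every 4 weeks between the ages of 6 and 22 weeks. NOD progressors, which became hyperglycemic, gave 58 samples of 10 mice at 6 weeks of age, at 7, 5, 3 and 1 weeks before onset and at onset. NOD nonprogressors gave 39 samples of 11 mice, of which 20 (mice 1 to 4, batch 1) cover the same 5 ages as NOR, 13 (batch 2) were taken at 6 or 14 weeks, and 6 are labelled by days after implantation. The labels give no transgene and no treatment, but per the methods of the study every mouse received carprofen, an analgesic that inhibits cyclooxygenases, before implantation. Per the methods, the same analgesic regimen was used at each of the weekly explantations. Carprofen is thus common to all groups, but the number of doses advances with age in every course. Its part in the levels of the members was not tested. The samples were sequenced in 2 batches. Every NOR sample is in batch 1 and every sample at 7 weeks before onset is in batch 2, so levels are given within a batch. Age, time since the first implantation and the number of earlier biopsies advance together in every course, and their parts cannot be told apart. The time that a sampled scaffold had been in place need not follow age, since scaffolds were replaced in rotation. Scaffolds taken at 6 weeks of age were among those first placed, while later ones could be replacements. The part of this in the contrasts with 6 weeks was not tested.

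Eicosanoids are lipid mediators made from arachidonic acid after phospholipases free it from membranes. The cyclooxygenases encoded by Ptgs1 (largely constitutive) and Ptgs2 (inducible) make prostaglandin H, which terminal synthases turn into prostaglandin E (Ptges), prostaglandin D (Hpgds in hematopoietic cells, Ptgds in brain and other tissues) or thromboxane A (Tbxas1). In the lipoxygenase branch, the enzyme encoded by Alox5, helped by the membrane protein encoded by Alox5ap, makes leukotriene A, which Ltc4s conjugates to glutathione, and Alox15 oxygenates polyunsaturated fatty acids toward other hydroxylated and proresolving lipids. Macrophages, mast cells, eosinophils and platelets are known sources of these mediators, and implanted biomaterials recruit several of these cells.

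Promoter sequences were read for the cyclooxygenase pair and for Tbxas1, which had the larger level at the last time in every NOD course tested. They show the 180 bases before the start site in the mouse build GRCm38.p6 (RefSeq), written 5′ to 3′ on the strand of the gene, with matched motifs in capitals. The start used for Tbxas1 lies inside the annotated gene (chr6:38875404-39084585), not at its first base.
Ptgs1, chr2:36230246-36230425, plus strand: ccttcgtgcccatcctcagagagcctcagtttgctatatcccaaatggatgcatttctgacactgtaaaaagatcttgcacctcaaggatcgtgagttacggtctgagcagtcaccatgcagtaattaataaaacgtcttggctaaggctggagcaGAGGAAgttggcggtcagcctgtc
Ptgs2, chr1:150099851-150100030, plus strand: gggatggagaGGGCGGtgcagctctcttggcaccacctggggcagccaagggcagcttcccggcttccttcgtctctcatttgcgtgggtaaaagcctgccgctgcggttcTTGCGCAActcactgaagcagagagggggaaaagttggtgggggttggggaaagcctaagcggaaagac
Tbxas1, chr6:38918806-38918985, plus strand: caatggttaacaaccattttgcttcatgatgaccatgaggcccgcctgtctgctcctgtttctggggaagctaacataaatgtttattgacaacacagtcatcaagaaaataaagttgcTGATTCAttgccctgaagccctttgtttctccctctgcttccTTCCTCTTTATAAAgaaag
Motifs were searched on both strands from 250 bases before to 50 bases after the start. The PU.1-type ETS letters GAGGAA, which read TTCCTC on the other strand, were found in 7 of the 8 members with a promoter in the table (all but Ptgds) and in 28.3% of all 32851 promoters. The Ptgs2 window held the C/EBP-type letters TTNCGCAA at position -69 from the start, a motif present in 0.798% of promoters. It also held the GC box GGGCGG (35.7% of promoters) at position -170 and, past the start, the CRE core TGACGT (7.51%) on the minus strand and the E-box CACGTG (7.15%), which overlap. The Tbxas1 window held the AP-1 letters TGANTCA (7.81%) and, on both strands, the TATA box TATAAA (13.6%). The TATA matches directly follow the GAGGAA match of the other strand, without overlap. The GATA letters AGATAA (11.2%) were in none of the 8 windows. These matches describe letters and are not evidence of binding.

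Total counts per library ran from 4722396 to 56185434 in batch 1 and from 29029239 to 43880986 in batch 2. Values are CPM, that is, counts relative to the library total, scaled by the trimmed mean of M values within each batch. The 18-week library of NOR mouse 5 had 85.7% of its 8616431 counts on 1 ribosomal RNA gene (CT010467.1), so its member counts rest on few reads. Macrophage genes (9 listed) summed to 1721 to 4588 CPM and fibroblast genes (6 listed) to 5095 to 49963 CPM over the libraries, whereas the sum of 5 skeletal muscle genes ran from 0.614 to 18945 CPM within batch 1. Here, as in any bulk sample, fewer cells of a type and less RNA per cell cannot be told apart.

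Per kilobase of exon, Alox5ap stood highest, with a median level of 36.3 CPM per kb in batch 1 and 62.9 in batch 2. Ltc4s (8.68), Ptges (7.91), Tbxas1 (6.37), Hpgds (5.05), Ptgs1 (3.35), Alox5 (2.42) and Ptgs2 (1.41) followed in batch 1, in CPM per kb. Alox15 (0.346) and Ptgds (0.0174) were last. Neighbours in this order had overlapping ranges over the libraries of batch 1, and in batch 2 all neighbours overlapped except Alox5ap and the next gene, Ptges (10.3). Batch 2 kept Ptgs1, Alox5, Ptgs2, Alox15 and Ptgds in the last 5 places, after Hpgds (9.16), Tbxas1 (8.56) and Ltc4s (8.26).

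The members were chosen by their measured expression over the NOR ages, so these values are a description with no test. From 6 to 22 weeks of age, 8 of the 9 members that passed the filter on low counts (Ptgds did not) had a higher fitted level in NOR and Hpgds a lower one, with a median log2 difference of 1.14 against 0.02 over all genes. An adjusted p under 0.05 over the 5 ages was reached by 8 of the 9 (all but Ptges), where 8.24% of 19628 genes reached it, 4.51% with a higher and 3.73% with a lower level at 22 weeks. Since these values chose the members, nothing is read from that count or from the next. The CPM at 22 weeks lay above every value at 6 weeks for Alox15, Ltc4s, Alox5, Tbxas1 and Ptgs1, a pattern that 3% of 21606 genes had in this direction, 2.4% in the other and 5.4% in either.

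**Figure D1:**
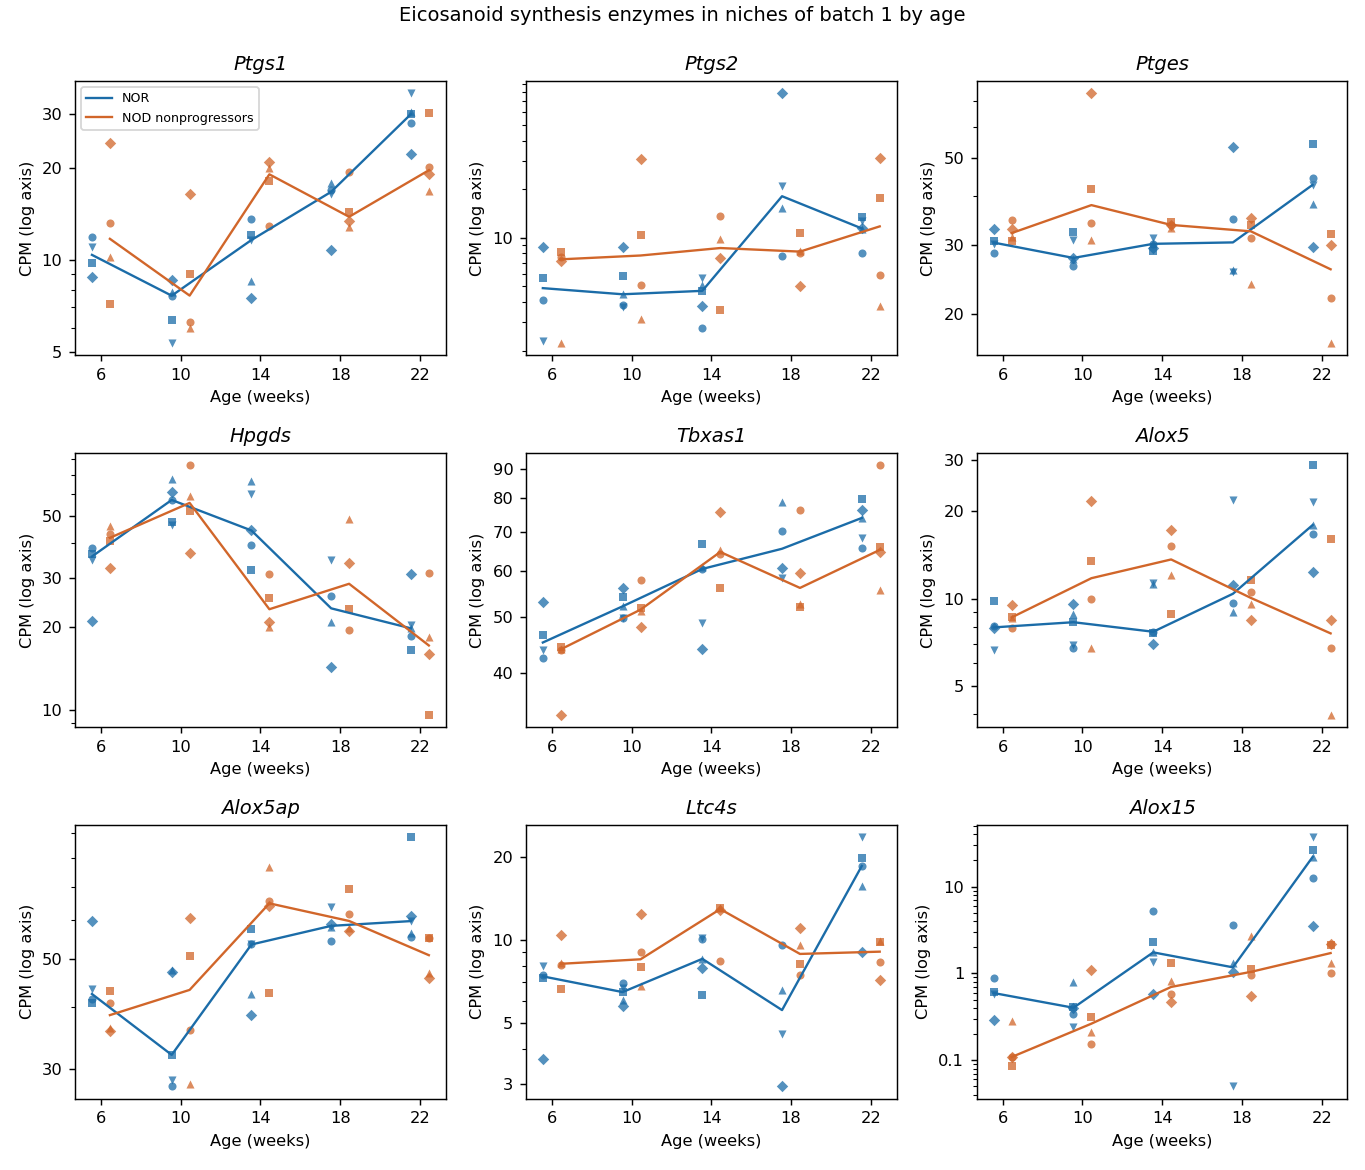
CPM (log axis) of the 9 members other than Ptgds against age in weeks, for NOR (blue) and NOD nonprogressors of batch 1 (orange). Each point is a library, its shape marks the mouse, lines join medians, and a library at 0 CPM is drawn at 0.05. The NOR points at 22 weeks lie above those at 6 weeks for Ptgs1, Tbxas1, Alox5, Ltc4s and Alox15, and Hpgds peaks at 10 weeks in both strains.

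Ptgs1, the constitutive cyclooxygenase (ENSMUSG00000047250, chr2:36230426-36252272), was at 11.9, 9.76, 8.80 and 11.0 CPM in the NOR niches at 6 weeks. At 22 weeks it was at 27.9, 29.9, 30.5, 22.1 and 34.9 CPM. The ages between were not a steady climb: at 10 weeks the 5 values ran from 5.37 to 8.58 CPM, all below the 6-week values, and at 18 weeks they ran from 10.8 to 17.8 CPM. The fitted log2 difference between 22 and 6 weeks was 1.5 (SE 0.19), and all 4 mice sampled at both ages had higher values at 22 weeks (per-mouse log2 changes 1.23 to 1.65). Nonprogressors of batch 1 had Ptgs1 at 13.2, 7.20, 10.2 and 24 CPM at 6 weeks and at 20.1, 30.1, 16.8 and 19.1 CPM at 22 weeks. These groups overlap through mouse 4, which began at the highest value, and the log2 difference of 0.67 (SE 0.34) did not pass (edgeR quasi-likelihood F test over 5 ages, adjusted p = 0.12). It was 0.25 without mouse 2 (edgeR adjusted p = 0.355), and it passed without mouse 4 (1.15, edgeR adjusted p = 0.032) and with DESeq2 (adjusted p = 0.0405). Among nonprogressors of batch 2, Ptgs1 had a median of 22.0 CPM at 6 weeks (16 to 25.7) and 14.0 CPM at 14 weeks (8.73 to 23.9), with a log2 difference of -0.50 (SE 0.19, edgeR adjusted p = 0.057). At 14 weeks mice 5, 7 and 8 lay within the 6-week range, mouse 5 highest, and without mouse 5 the difference was -0.73 (edgeR adjusted p = 0.0025).

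Ptgs2, the inducible cyclooxygenase (ENSMUSG00000032487, chr1:150100031-150108227), was at 4.14, 5.61, 8.76 and 2.31 CPM in NOR at 6 weeks and at 8.07, 13.4, 11.3, 11.4 and 12.7 CPM at 22 weeks, groups that overlap by 1 library of each. Its highest level in batch 1, 78.2 CPM, was in the 18-week library of NOR mouse 4, while the other 3 NOR values at this age ran from 7.68 to 20.9 CPM. That library also had the highest summed neutrophil markers among the 4 NOR libraries of this age, 861 CPM against 27.3 to 97.3. Its mast cell sum was the highest too, 187 CPM against 14.3 to 80.0. Neutrophil sums reached 2146 CPM in batch 1. In nonprogressors of batch 2 at 14 weeks, mouse 5 had the highest Ptgs2, 14.3 CPM. Its neutrophil and mast cell sums, 68.0 and 8.78 CPM, were the lowest of that group. The part of these cells in the Ptgs2 values was not tested. In NOR the fitted log2 difference of 22 against 6 weeks was 1.14 (SE 0.48) with the 18-week library of mouse 4 and 1.14 (SE 0.34) without it. Nonprogressors of batch 1 had 7.56, 8.20, 2.24 and 7.16 CPM at 6 weeks and 5.86, 17.7, 3.80 and 31.0 CPM at 22 weeks. At 22 weeks mice 1 and 3 lay within the 6-week range and mice 2 and 4 above it, and the log2 difference of 1.23 (SE 0.68) did not pass (edgeR adjusted p = 0.56).

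In batch 2 Ptgs2 was the member that fell in nonprogressors from 6 to 14 weeks. Its level was 11.6 to 23.1 CPM at 6 weeks (median 13.6, n = 7) and 3.31 to 14.3 CPM at 14 weeks (median 4.66, n = 6), a log2 difference of -1.34 (SE 0.32, edgeR adjusted p = 0.0057). Only mouse 5, at 14.3 CPM, reached the 6-week range, and the other 5 values at 14 weeks were at most 5.84 CPM. Over the same interval 5 of 9 macrophage genes and 4 of 6 resident tissue macrophage genes fell and all 5 adipocyte and all 5 skeletal muscle genes rose, where 34.1% of all genes passed. All 6 fibroblast genes and 4 of 5 Schwann cell and nerve genes fell too, and 5 of the 8 mast cell genes tested rose. The median summed muscle markers went from 10.3 to 3047 CPM. The part of these lists in the Ptgs2 result was not tested. In batch 1 a fit of these 2 ages alone gave 0.41 (SE 0.47, edgeR adjusted p = 0.66), and the interaction of age and batch was -1.79 (SE 0.59, edgeR adjusted p = 0.090).

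Of the 3 terminal prostaglandin and thromboxane synthases tested, Hpgds was lower and Tbxas1 higher at 22 than at 6 weeks in the age courses of batch 1, and Ptges had the smallest differences. Hpgds, the hematopoietic prostaglandin D synthase (ENSMUSG00000029919, chr6:65117293-65144908), was at 38.5, 36.7, 20.9 and 34.9 CPM in NOR at 6 weeks, at 46.6 to 68.1 CPM at 10 weeks, and at 18.5, 16.5, 19.7, 31.0 and 20.3 CPM at 22 weeks. It was thus highest at 10 weeks, and at 22 weeks 4 of the 5 values lay below the 6-week range, mouse 4 being the exception in both groups. The fitted log2 difference was -0.62 (SE 0.24) at 22 weeks and 0.76 (SE 0.25) at 10 weeks. Nonprogressors of batch 1 also had their highest fitted level at 10 weeks, though this contrast with 6 weeks did not pass (log2 difference 0.47, SE 0.31, edgeR adjusted p = 0.45). They had 42.9, 40.5, 45.9 and 32.5 CPM at 6 weeks, 36.7 to 76.1 CPM at 10 weeks, and 31.2, 9.65, 18.3 and 15.9 CPM at 22 weeks. Hpgds fell, with no overlap between 22 and 6 weeks and a log2 difference of -1.10 (SE 0.31, edgeR adjusted p = 0.014 over the 5 ages and 0.018 for the contrast). Leaving out mouse 2, 3 or 4 ended the call (edgeR adjusted p 0.066, 0.074 and 0.097). Non-overlap between these ages in the downward direction was seen in 11.2% of genes. At 14 weeks Hpgds was also lower than at 6 weeks in batch 1 in a fit of these 2 ages alone (-0.78, SE 0.16, edgeR adjusted p = 0.0265), though not in the fit of all 5 ages (-0.73, SE 0.31, edgeR adjusted p = 0.175), whereas in batch 2 its medians were 54.3 CPM at 6 weeks and 58.8 CPM at 14 weeks (log2 difference 0.05, SE 0.15, edgeR adjusted p = 0.82). The interaction with batch did not pass (0.78, SE 0.24, edgeR adjusted p = 0.078).

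Tbxas1, thromboxane A synthase (ENSMUSG00000029925, chr6:38875404-39084585), was at 42.5, 46.4, 53.1 and 43.9 CPM in NOR at 6 weeks and at 65.6, 79.8, 74.0, 76.4 and 68.4 CPM at 22 weeks. Nonprogressors of batch 1 had 43.8, 44.4, 44.0 and 33.9 CPM at 6 weeks and 91.2, 65.8, 55.7 and 64.5 CPM at 22 weeks. Neither strain had an overlap between the ages. In nonprogressors it rose, with a log2 difference of 0.75 (SE 0.14, edgeR adjusted p = 0.0091), beside 0.66 (SE 0.11) in NOR, and each of the 4 mice was higher at 22 weeks. Without mouse 4 the value was 0.70 and no longer passed (edgeR adjusted p = 0.13). In batch 2 Tbxas1 rose from a median of 63.2 CPM (56.5 to 76.3) at 6 weeks to 79.6 CPM (67.0 to 90.9) at 14 weeks, a log2 difference of 0.30 (SE 0.09, edgeR adjusted p = 0.019). It was higher in 5 of 6 mice, and the edgeR adjusted p was 0.067 with the mouse as a block, 0.053 without mouse 7, 0.102 without mouse 8 and 0.067 without mouse 9. Markers of platelets, a known site of this enzyme, gave 3 genes up and 1 down of 7 in that contrast, where 34.1% of all genes passed. Over the ages they gave 2 up of 7 in nonprogressors of batch 1 (13.6% of all genes) and 1 up of 7 in NOR (8.24%). Macrophage genes gave 0 up and 5 down of 9 in the batch 2 contrast. They gave 1 up and 0 down of 9 in nonprogressors of batch 1, and 1 up and 1 down of 9 in NOR. The part of either cell type in the Tbxas1 values was not tested. Tbxas1 overlaps Hipk2 and 2 antisense genes on the opposite strand, and the use of strand in counting is not given in the sources used here. Ptgs1, Alox5ap, Hpgds and Ltc4s also overlap genes annotated on the opposite strand, so the same limit holds for them.

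Ptges, the inducible prostaglandin E synthase (ENSMUSG00000050737, chr2:30889471-30929863), varied little among early NOR libraries, with 28.5 to 33.0 CPM at 6 weeks and 28.9 to 31.2 CPM at 14 weeks. At 22 weeks it was at 44.5, 54.3, 38.1, 29.7 and 42.7 CPM, so mouse 4 alone stayed in the 6-week range, and the log2 difference was 0.47 (SE 0.17). Among the batch 1 nonprogressors the values ran from 30.7 to 34.6 CPM at 6 weeks and were 21.9, 32.0, 16.8 and 30.0 CPM at 22 weeks, a log2 difference of -0.35 (SE 0.23, edgeR adjusted p = 0.12). In batch 2 the difference of 14 against 6 weeks was -0.29 (SE 0.13, edgeR adjusted p = 0.10). Neither passed.

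Among the lipoxygenase members, Alox15 had the largest differences and the lowest levels of the 9. Alox15 (ENSMUSG00000018924, chr11:70344152-70352031) was at 0.883, 0.610, 0.289 and 0.578 CPM in NOR at 6 weeks and at 12.5, 26.5, 22.0, 3.48 and 37.2 CPM at 22 weeks. All 5 late libraries lay above all early ones, and the fitted log2 difference was 5.10 (SE 0.72). At 14 weeks the NOR values were already at 0.586 to 5.30 CPM. It also rose in nonprogressors of batch 1 from 0.108, 0.0854, 0.284 and 0.110 CPM at 6 weeks to 1.00, 2.10, 1.33 and 2.18 CPM at 22 weeks. That is a log2 difference of 3.47 (SE 0.65, edgeR adjusted p = 0.010), with every mouse higher. Leaving out mouse 1 or mouse 2 ended the call (edgeR adjusted p 0.083 and 0.090). Alox15 also rose from 6 to 14 weeks in the other mice of batch 2, from 0.136 to 0.624 CPM (median 0.280) to 0.745 to 3.58 CPM (median 1.10). The groups did not overlap, 6 of 6 mice were higher, and the log2 difference was 2.21 (SE 0.44, edgeR adjusted p = 0.0021). Non-overlap in this direction was found for 3.52% of genes there (4.92% downward, 8.45% in either direction), and 14 against 6 weeks in batch 1, fitted alone, gave 2.39 (SE 0.49, edgeR adjusted p = 0.0273).

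NOR and nonprogressors of batch 1 were also compared with the counts of each mouse summed over ages (5 against 4 mice), where 6.26% of 22975 genes passed, 2.63% higher and 3.63% lower in nonprogressors. The comparison contains the NOR samples that chose the members, so their values are a description with no test. Alox15 had the lower level in nonprogressors, with a log2 difference of -2.99 (SE 0.52). Without the 22-week samples it was -1.18 (SE 0.42), and at 6 weeks alone Alox15 did not pass the filter on low counts. The other 8 members had log2 differences from -0.12 to 0.07, with standard errors from 0.06 to 0.45.

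In the NOR libraries at 22 weeks, where Alox15, Ltc4s and Alox5 were highest, the markers of several cell types were higher too. Of 10 mast cell genes 6 passed upward over the ages, where 8.24% of all genes passed. Their sum was 50.1 to 169 CPM at 22 weeks against 16.3 to 48.1 CPM at 6 weeks. All 4 of the 4 eosinophil genes tested passed upward, with sums of 6.38 to 15.5 CPM against 4.03 to 5.58 CPM. The resident tissue macrophage sum was 289 to 493 CPM against 99.0 to 151 CPM, with 2 genes up and 1 down of 6. The NOR mouse with the lowest Alox15 and Ltc4s at 22 weeks, mouse 4, had the lowest sum of all 3 lists at that age. No mast cell gene of the 7 tested passed in nonprogressors of batch 1, where 13.6% of all genes passed, and the mast cell sum at 22 weeks was 9.38 to 41.1 CPM. Of 3 eosinophil genes tested there 1 passed upward, and of 6 resident tissue macrophage genes 0 passed. In batch 2, where Alox15 rose from 6 to 14 weeks, 5 of 8 mast cell genes tested passed upward and 0 downward (34.1% of all genes passed), with a median sum of 28.0 CPM at 6 weeks and 80.3 CPM at 14 weeks. Of 2 eosinophil genes tested in that contrast 0 passed, and of 6 resident tissue macrophage genes 4 passed downward. The part of these cells in the results was not tested.

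Alox5, arachidonate 5-lipoxygenase (ENSMUSG00000025701, chr6:116410077-116461178), was at 8.02, 9.84, 7.89 and 6.62 CPM in NOR at 6 weeks and at 16.6, 28.8, 17.9, 12.4 and 21.5 CPM at 22 weeks, a log2 difference of 1.28 (SE 0.25) without overlap. In nonprogressors of batch 1 the values at 22 weeks, 6.73, 16.1, 3.98 and 8.44 CPM, lay on both sides of those at 6 weeks, 7.91 to 9.54 CPM. The log2 difference was 0.04 (SE 0.35, edgeR adjusted p = 0.43 over the ages). In batch 2 Alox5 gave -0.55 (SE 0.23, edgeR adjusted p = 0.082) from 6 to 14 weeks, and -0.91 (edgeR adjusted p = 0.00016) without mouse 5, whose 14-week value of 22.8 CPM stood over the 8.19 to 10.8 CPM of the others.

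Alox5ap, the activating protein of that enzyme (ENSMUSG00000060063, chr5:149264767-149288153), changed over the ages in nonprogressors of batch 1 (edgeR adjusted p = 0.049, and 0.078 with the mouse as a block). It was at 35.8 to 43.2 CPM at 6 weeks, 42.7 to 77.0 CPM at 14 weeks and 45.8 to 55.2 CPM at 22 weeks, so all values at 22 weeks were above those at 6 weeks. The contrast with 6 weeks passed at 14 weeks (log2 difference 0.69, SE 0.19, edgeR adjusted p = 0.042) and did not at 22 weeks (0.39, SE 0.19, edgeR adjusted p = 0.15). In nonprogressors of batch 1 the call over the ages was lost on leaving out any 1 mouse. NOR had 40.8 to 59.8 CPM at 6 weeks and 55.5 to 88.4 CPM at 22 weeks, a log2 difference of 0.48 (SE 0.18). In batch 2 the direction from 6 to 14 weeks was downward, from 84.2 to 115 CPM to 54.5 to 124 CPM (log2 difference -0.43, SE 0.16, edgeR adjusted p = 0.051, and 0.047 with the mouse as a block). Without mouse 5 it was -0.62 (edgeR adjusted p = 0.00026). Batch 1 gave 0.63 (SE 0.16, edgeR adjusted p = 0.051) for the same ages fitted alone, and Alox5ap was the 1 member of 9 for which the interaction of age and batch passed (-1.11, SE 0.27, edgeR adjusted p = 0.032, with 3.15% of 21050 genes passing, 1.54% upward and 1.62% downward). The nonprogressors of the 2 batches are different mice and were sequenced separately, which cannot be told apart.

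Ltc4s, leukotriene C synthase (ENSMUSG00000020377, chr11:50236461-50238616), was at 7.44, 7.28, 3.70 and 8.01 CPM in NOR at 6 weeks and at 18.5, 19.8, 15.6, 9.00 and 23.5 CPM at 22 weeks. Its log2 difference of 1.40 (SE 0.29) arose late, since the 18-week values were 9.56, 6.56, 2.94 and 4.55 CPM. In nonprogressors it did not pass. Their values were 6.61 to 10.4 CPM at 6 weeks and 7.15 to 9.90 CPM at 22 weeks in batch 1 (0.09, SE 0.20, edgeR adjusted p = 0.28), and the change to 14 weeks in batch 2 was -0.07 (SE 0.17, edgeR adjusted p = 0.78). The difference between the strains in these age changes was not tested.

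In all, 4 of 9 members passed over the 5 ages in nonprogressors of batch 1 (Alox15 and Tbxas1 higher at 22 weeks, Hpgds lower, and Alox5ap, whose contrast of 22 with 6 weeks alone did not pass), where 13.6% of 19715 genes passed, 6.98% higher and 6.57% lower. The CPM of Alox15, Alox5ap and Tbxas1 at 22 weeks lay above and that of Hpgds below every 6-week value, patterns found for 10.1% and 11.2% of genes and for 21.4% in either direction. Between 14 and 6 weeks in the same mice, Alox15 and Tbxas1 (7.33% of genes) lay above and Hpgds (6.72%) below, with 14.1% of genes in either direction. In batch 2, 3 of 9 passed between 14 and 6 weeks (Alox15, Tbxas1 and Ptgs2), where 34.1% of 19665 genes passed, so the share of the members there was near the background. The median log2 difference of the members was 0.39 in batch 1 and -0.29 in batch 2, against -0.02 and 0.01 over all genes.

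**Figure D2:**
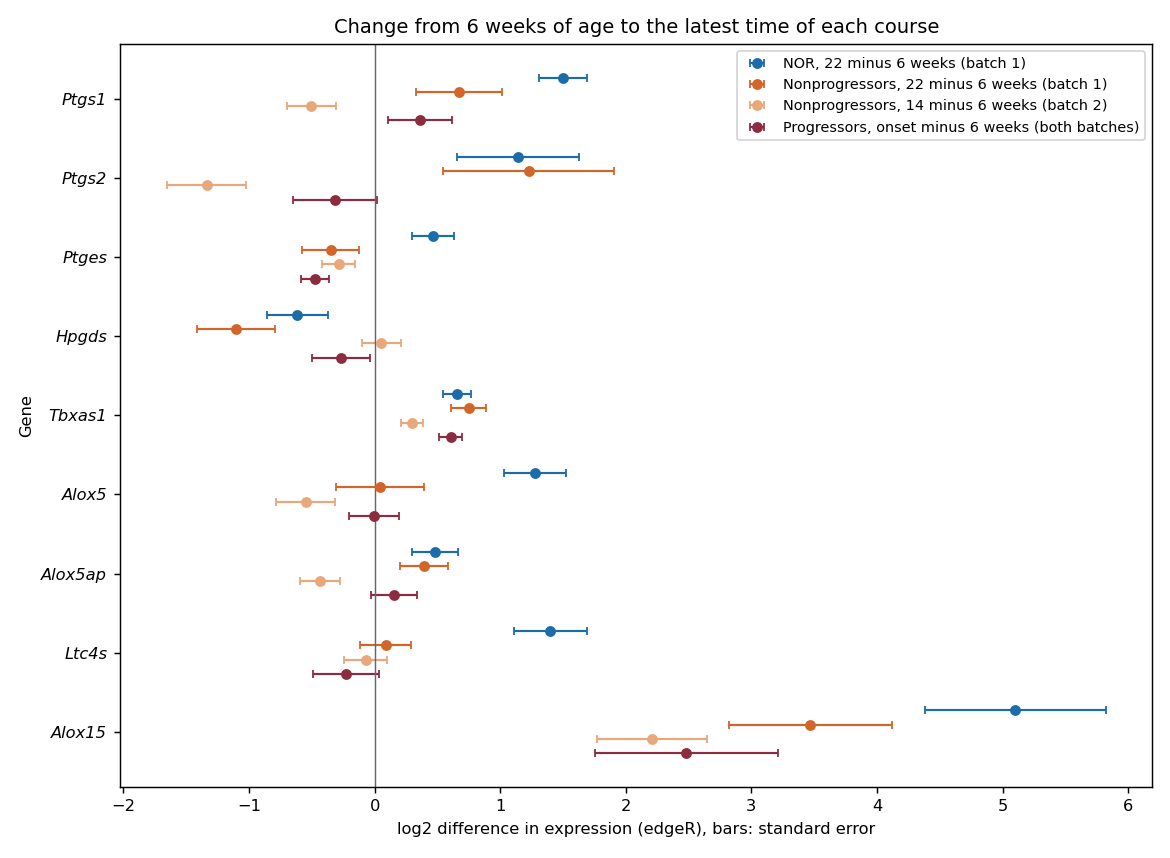
Fitted log2 differences (points) with standard errors (bars) of the 9 members tested, in 4 comparisons. Alox15 and Tbxas1 lie to the right of 0 in all 4, and Ptges lies to the right in NOR (0.47) and to the left in the others (-0.35, -0.29 and -0.47). The NOR values are a description.

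In NOD progressors the time points are set by onset, so that age and time to onset advance together. Over the 6 times, fitted with batch as a term, 5 of 9 members passed (Hpgds, Ptges, Ptgs1, Ptgs2 and Tbxas1), where 35.6% of 21279 genes passed, 17% higher and 18.6% lower at onset. Among the marker lists, all 6 fibroblast genes, 4 of 5 Schwann cell and nerve genes and 3 of 6 resident tissue macrophage genes passed with a lower level at onset, and 3 of 5 B cell genes with a higher one. The summed fibroblast markers of batch 2 were 31112 to 46064 CPM at 6 weeks and 5095 to 14479 CPM at onset. The part of these cells in the results of the members was not tested.

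Tbxas1 rose. In batch 1 it was at 53.2, 43.7, 42.7, 44.9 and 38.0 CPM at 6 weeks and at 58.6, 60.7, 77.4, 74.3 and 73.6 CPM at onset. In batch 2 it was at 53.5, 79.0, 60.3, 78.3 and 72.2 CPM at 6 weeks and at 84.1, 99.9, 104, 115 and 115 CPM at onset. The groups did not overlap in either batch, and all 10 mice were higher at onset. The log2 difference was 0.61 (SE 0.09, edgeR adjusted p = 3.3e-06 over the times), 0.65 within batch 1 and 0.59 within batch 2. At 5, 3 and 1 weeks before onset it was 0.40, 0.45 and 0.44 above 6 weeks, each past the threshold, whereas at 7 weeks before onset it was 0.11 (SE 0.10, edgeR adjusted p = 0.51). Non-overlap in this direction between 6 weeks and onset was found for 5.39% of genes in batch 1 and 9.23% in batch 2.

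Ptges went the other way. Its values in batch 2 were 45.8 to 65.1 CPM at 6 weeks and 26.3 to 43.5 CPM at onset, with no overlap (10.1% of genes in this direction, 19.3% in either) and 5 of 5 mice lower. In batch 1 they were 34.8 to 42.4 CPM and 25.1 to 43.5 CPM, with 3 of 5 mice lower. The log2 difference was -0.47 (SE 0.11, edgeR adjusted p = 0.0023 over the times), with -0.69 within batch 2 and -0.24 within batch 1, where it did not pass (edgeR adjusted p = 0.13). The difference from 6 weeks was similar at 5 and 3 weeks before onset (-0.47 and -0.42, edgeR adjusted p = 0.0011 and 0.0036). It was -0.30 (SE 0.11, edgeR adjusted p = 0.033) at 1 week before onset, and at 7 weeks before onset it did not pass (-0.28, SE 0.12, edgeR adjusted p = 0.12).

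By their medians in batch 2, both cyclooxygenases were lowest at 7 weeks before onset, a time held by batch 2 only. Of the 8 libraries at this time, 4 are of mice 1 to 4, whose other samples are in batch 1. Ptgs2 had a median of 5.70 CPM there (3.00 to 8.00, n = 8) against 19.4 CPM (9.75 to 32.5, n = 5) in the 6-week samples of batch 2. The fit of both batches, with batch as a term, gave a log2 difference from 6 weeks of -1.68 (SE 0.38, edgeR adjusted p = 0.0024). Ptgs1 had a median of 10.7 CPM (7.24 to 20.4) against 21.3 CPM (11.0 to 33.8) in batch 2, and the fit of both batches gave -0.82 (SE 0.28, edgeR adjusted p = 0.047). At onset neither passed against 6 weeks (Ptgs1 0.36, SE 0.26, edgeR adjusted p = 0.26, and Ptgs2 -0.31, SE 0.34, edgeR adjusted p = 0.48). Over the times Ptgs1 passed with an edgeR adjusted p of 0.0071 and Ptgs2 with 0.0099. Within batch 1, which has no sample at 7 weeks before onset, neither passed (0.060 and 0.78), and with the mouse as a block Ptgs2 did not pass (0.12). Nor did Ptgs1 pass over the times within batch 2 alone (edgeR adjusted p = 0.062).

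By contrast, Hpgds had its highest medians in batch 2 at 7 and 5 weeks before onset. At 7 weeks before onset, mice 1 to 4, which have no 6-week sample in batch 2, had 102, 101, 72.7 and 110 CPM. Mice 6, 7, 9 and 10 had 78.1, 36.3, 83.7 and 81.8 CPM at that time. In batch 2 its median was 41.5 CPM at 6 weeks (35.0 to 56.6), 82.8 CPM at 7 weeks before onset (36.3 to 110) and 90.7 CPM at 5 weeks before (38.2 to 104), and it returned to 44.4 CPM at onset (27.8 to 61.3). The difference from 6 weeks, fitted over both batches, was 0.62 at both 7 and 5 weeks before onset (SE 0.26 and 0.23, edgeR adjusted p = 0.10 and 0.042) and -0.27 (SE 0.23) at onset. Over the times Hpgds passed (edgeR adjusted p = 0.0078), as it did within batch 2 (0.014) but not within batch 1 (0.15).

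**Figure D3:**
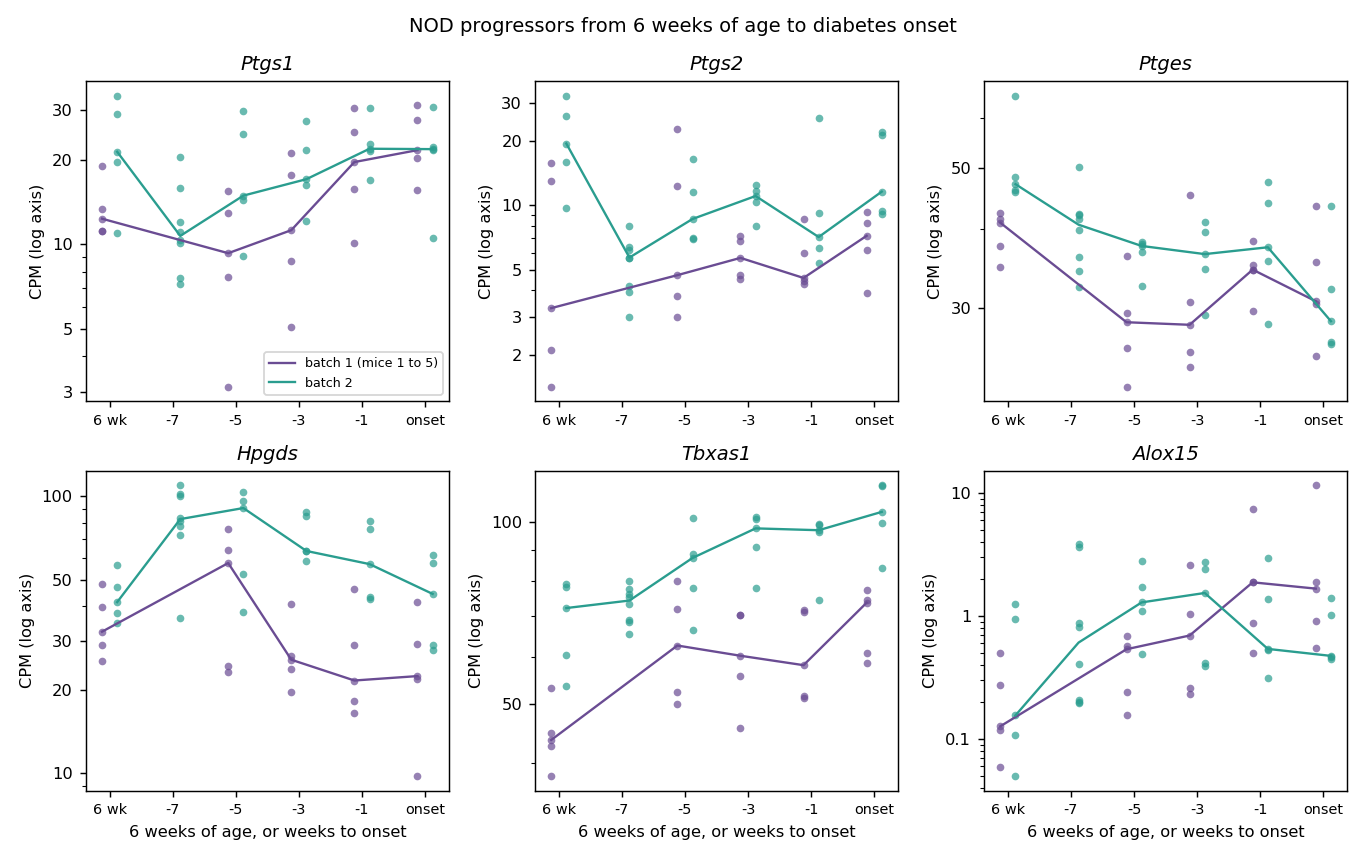
CPM (log axis) of 6 members in NOD progressors at 6 weeks of age and at 7, 5, 3 and 1 weeks before onset and at onset, with batch 1 in purple and batch 2 in green. Points are libraries, lines join medians, a library at 0 CPM is drawn at 0.05, and batch 1 has no sample at 7 weeks before onset. Tbxas1 climbs in both batches, and Ptgs2 dips 7 weeks before onset in batch 2.

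Alox15 rose from 0.0588 to 0.496 CPM at 6 weeks to 0.555 to 11.6 CPM at onset in batch 1, with no overlap and 5 of 5 mice higher. In batch 2 it was at 0 to 1.25 CPM and 0.449 to 1.40 CPM, with 4 of 5 mice higher and overlapping groups. The log2 difference with both batches was 2.48 (SE 0.73, edgeR adjusted p = 0.0056 for the contrast), while the test over all times did not pass (edgeR adjusted p = 0.076, and 0.045 with the mouse as a block). Without mouse 4 the log2 difference was 1.40 (edgeR adjusted p = 0.13 over the times), and the test over the times passed without mouse 8 (0.044) or mouse 10 (0.033). The values within batches, 3.89 (SE 0.92) and 0.62 (SE 0.89), differed by -3.24 (SE 1.29, edgeR adjusted p = 0.16), and no member passed this test of the batches, which 1.88% of genes did. Alox5 (-0.01, SE 0.20), Alox5ap (0.15, SE 0.18) and Ltc4s (-0.23, SE 0.26) did not pass at onset or over the times.

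The study asked whether progressors can be told from nonprogressors before disease, and reported a separation by a set of genes chosen jointly with an elastic net regression. The tests here take each gene alone, so they are a different measure and do not repeat that result. At 6 weeks of age (10 against 11 mice, batch as a term), none of the 8 members tested passed. Of 20090 genes 0% did, with 999 genes at an unadjusted p under 0.05 (edgeR) and with 0 genes by DESeq2. The log2 differences of progressors against nonprogressors ran from 0.05 (Ptgs1, SE 0.19) to 0.54 (Alox15, SE 0.51) for 8 members. Hpgds had -0.31 (SE 0.12) and is described without a test, because it was taken as part of the signature that the study drew from these samples. The text of the study does not list the genes of that signature, so this membership could not be checked here. The 6-week values of Hpgds were 25.4 to 48.3 CPM in progressors and 32.5 to 45.9 CPM in nonprogressors of batch 1, and 35.0 to 56.6 CPM and 44.8 to 75.5 CPM in batch 2. At later times, with counts summed per mouse (10 against 10), again no member passed and 0% of 23833 genes did, with 2238 at an unadjusted p under 0.05 (edgeR) and 146 genes by DESeq2. The members' differences ran from -0.17 (Ptges, SE 0.10) to 0.28 (Ptgs1, SE 0.17), with standard errors from 0.08 (Tbxas1) to 0.38 (Alox15).

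Ptgds, the lipocalin-type prostaglandin D synthase (ENSMUSG00000015090, chr2:25466709-25470046), was close to absent. It had no count in 32 of 74 libraries of batch 1 and in 18 of 46 of batch 2. It reached 8.80 CPM (273 counts) in progressor mouse 2 at 3 weeks before onset and 8.03 CPM (294 counts) in progressor mouse 7 at onset, and the next highest value was 0.648 CPM, in progressor mouse 10 at 5 weeks before onset. These 3 libraries also had the 3 highest sums of the 8 epidermis and hair follicle genes, 2216, 4021 and 609 CPM, and the lowest sum in either batch was 0.335 CPM. The 2 libraries with Ptgds stood above all the other 118 for 427 genes, Ptgds included, among them, chosen after their values were seen, the melanocyte gene Dct (45.5 and 61.8 CPM against at most 4.84). Whether the tissue around these scaffolds gave the Ptgds counts was not tested.

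**Figure D4:**
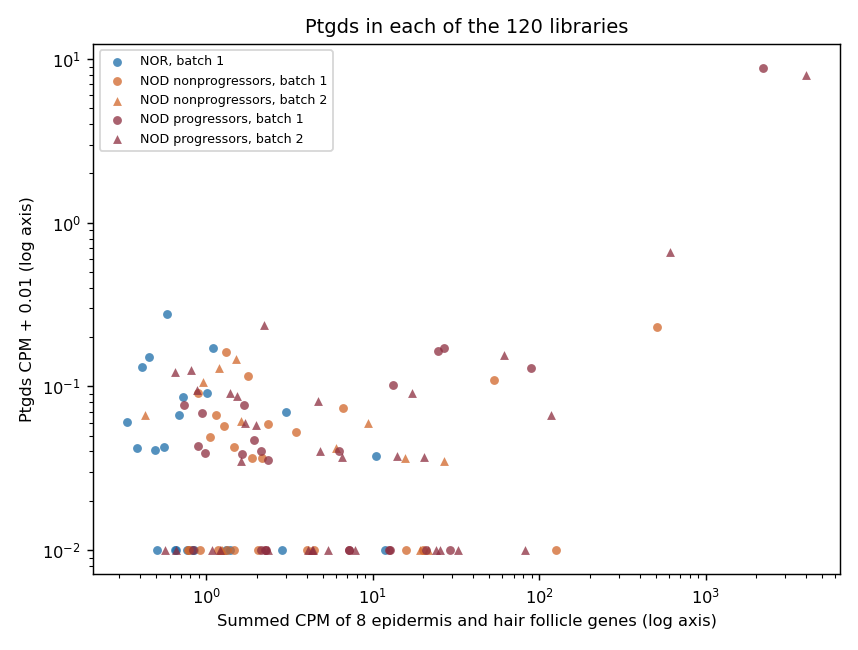
Ptgds level (CPM + 0.01, log axis) against the summed CPM of 8 epidermis and hair follicle genes (log axis), 1 point for each of the 120 libraries. Most points lie along the bottom, and the 2 libraries above 8 CPM of Ptgds sit at sums of 2216 and 4021 CPM.

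Other genes of the pathway (68 listed: phospholipases, other synthases, breakdown enzymes, transporters and receptors, of which 67 were in the tables) moved in both directions in the age courses. In nonprogressors of batch 1, 10 passed upward and 5 downward of 60 tested (13.6% of all genes passed), and in batch 2, 15 and 9 of 58 (34.1%). In progressors 22 passed upward and 11 downward of 65 (35.6%). Between the strains 4 were higher and 7 lower in nonprogressors of 64 (6.26%), and between progressors and nonprogressors 0 passed at either time. In NOR 9 passed upward and 5 downward of 59 (8.24%). The receptors gave the most calls among the 5 groups in progressors, with 8 up and 5 down of 17.

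The genes named are the 6 of this list with the smallest p in each age, strain or progressor comparison. Ptger2, the prostaglandin E receptor that raises cyclic AMP, rose in nonprogressors of batch 1 (0.96, SE 0.13, edgeR adjusted p = 0.00016) and in progressors at onset (1.34, SE 0.13, edgeR adjusted p = 6.1e-10). Cysltr2, a cysteinyl leukotriene receptor, had log2 differences of 2.57 and 1.74 in these courses, and Mgst2, a microsomal enzyme that can also conjugate leukotriene A, of 1.33 and 1.59. In nonprogressors of batch 1 the epoxide hydrolase Ephx1 fell (-0.78, SE 0.17, edgeR adjusted p = 0.00070), and the leukotriene B hydroxylase Cyp4f18 changed over the ages (0.24, SE 0.13, at 22 weeks, edgeR adjusted p = 0.00025 over the ages). The leukotriene B receptor Ltb4r1 gave 2.14 (SE 0.40) in nonprogressors of batch 1 and 1.66 (SE 0.36) in NOR, the latter as a description. Also as descriptions, NOR had log2 differences of -0.47 for Ephx1, -0.68 for the lipase Mgll, -1.39 for the prostaglandin-degrading Hpgd, 0.02 for the aldose reductase Akr1b3 and 0.25 for Fpr2. The prostacyclin receptor Ptgir (0.98, SE 0.15) and the cytochrome P450 gene Cyp4f13 (0.26, SE 0.05) rose in progressors, and Mgll changed over the times, with 0.01 (SE 0.17) at onset (edgeR adjusted p = 0.00026 over the times). In nonprogressors of batch 2 the prostacyclin synthase Ptgis (-1.54, SE 0.26), the reductase Akr1c18 (-2.48, SE 0.33), the leukotriene-cleaving Ggt5 (-1.15, SE 0.18) and the lipid-mediator receptor Fpr2 (-1.23, SE 0.21) fell, and Mgll (0.93, SE 0.16) and the epoxide hydrolase Ephx2 (1.86, SE 0.33) rose, with edgeR adjusted p from 0.00024 (Akr1c18) to 0.0010 (Ephx2). Mgll and Ephx2 rose together with all 5 adipocyte genes, and the part of adipose tissue was not tested. The change from 6 to 14 weeks in nonprogressors differed between the batches (batch 2 minus batch 1) for some of the genes named. These were Ptger2 (-0.84, SE 0.22, edgeR adjusted p = 0.042), Ltb4r1 (-2.41, SE 0.49, edgeR adjusted p = 0.022) and Ptgis (-1.65, SE 0.45, edgeR adjusted p = 0.048). Hpgd differed in the other direction (2.92, SE 0.65, edgeR adjusted p = 0.027). Of 61 pathway genes tested for this, 2 passed upward and 4 downward (3.15% of all genes passed). Between the strains, the phospholipase Pla2g5 (-1.17, SE 0.12) and Cyp4f18 (-0.75, SE 0.08) were lower in nonprogressors than in NOR (edgeR adjusted p = 0.00029 and 0.00032). So were Cyp4f13 (-0.22, SE 0.03), the prostaglandin E receptor Ptger1 (-0.29, SE 0.04) and the leukotriene-cleaving dipeptidase Dpep1 (-0.75, SE 0.14), while the epidermal lipoxygenase Aloxe3 was higher (2.11, SE 0.44).

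Over the 15 group means of batch 1, which share animals and batch, the genes most like each member in mean log2 CPM were Aif1l and Pck2 for Ptgs1 (Pearson r 0.94 and 0.92). For Ptgs2 they were Ier3 and Mxd1 (0.92 and 0.92), for Alox15 Rab44 and Igkv6-20 (0.96 and 0.90), and for Alox5 Adam9 and Fn1 (0.89 and 0.86). Hpgds was most like Cpxm2 and Ecrg4 (0.97 and 0.96), Ptges like Ly6c2 and Rnase4 (0.91 and 0.89), Ltc4s like Cd209d and Ang (0.92 and 0.89), Tbxas1 like Fcgr2b and Bmp2k (0.97 and 0.96), and Alox5ap like Gm43592 and Bst1 (0.92 and 0.92). Over the 8 group means of batch 2 the value stayed above 0.9 for Ier3 (0.98), Rab44 (0.93), Cpxm2 (0.94) and Ly6c2 (0.91), and it was 0.26 for Aif1l, 0.30 for Ecrg4 and 0.01 for Gm43592. Among the members themselves, Ptgs1 and Hpgds had the most opposed means in batch 1 (r = -0.88, and -0.65 in batch 2). The pair Ptgs1 and Alox15 changed from 0.71 in batch 1 to -0.43 in batch 2.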

How the data were processed

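Total RNA depleted of ribosomal RNA was sequenced in 2 batches. The authors deposited expected counts per gene as whole numbers, 1 table per batch. Per the labels, the submitters' processing notes name cutadapt, FastQC, STAR, RSEM, MultiQC and the build GRCm38, without versions. Groups, mice and batches came from the labels, and 0 columns of per-sample values were left unmapped. Low genes were dropped by filterByExpr, and counts were scaled by TMM and tested by the quasi-likelihood F test of edgeR 4.0.16 under R 4.3.3. P-values were adjusted by Benjamini-Hochberg over all genes tested, with a threshold of 0.05. A test over ages or times covers all of them, and its log2 difference is 22 weeks or onset against 6 weeks, unless stated. For strain and later progression, the counts of each mouse were summed. Per-mouse changes used log2(CPM + 0.1). Alternatives were DESeq2 1.42.0, RLE scaling, no filter, the mouse as a block and leaving out mice. Scripts were tested on simulated data. Annotation was GENCODE M21, and promoters were RefSeq.

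All 10 members are named, and of the other pathway genes at most 6 per comparison with the smallest p among those past the threshold; likeness took 2 genes per member with a mean CPM of at least 1. The members and lists were chosen with earlier results of these data known. Mouse numbers in the labels mark the same animal. Over 2000 genes, deviations from group means correlated on average between -0.03 and 0.03 for samples of the same mouse. Among 239 replicate pairs the smallest chi-square divided by its degrees of freedom was 11.97, so no pair agreed within sampling noise. Samples of a group came from separate mice.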

Additional observations from a re-analysis of the deposited data

Results flagged for a closer look

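A library far from the others was sought in 208 cases, each being 1 member in 1 group of 1 batch, with 4 to 8 libraries. Such a library was found in 21 cases, where chance gives about 1 in 20. Progressors held Alox15 at 7.36 CPM (mouse 3, 1 week before onset, batch 1) and 11.6 CPM (mouse 4, onset, batch 1), Ptgds at 8.80 CPM (mouse 2, 3 weeks before onset), 8.03 CPM (mouse 7, onset) and 0.648 CPM (mouse 10, 5 weeks before onset), and Ptgs2 at 25.5 CPM (mouse 6, 1 week before onset, batch 2). Ptges stood high in progressor mouse 9 at 6 weeks (65.1 CPM) and low in mouse 8 at 5 weeks before onset (32.5 CPM), Tbxas1 stood low in mouse 8 at 1 week before onset (74.3 CPM), and Ltc4s stood low in mouse 1 at 1 week before onset (5.56 CPM).

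In nonprogressors of batch 2, mouse 5 at 14 weeks stood above the others for Ptgs2 (14.3 CPM), Alox5 (22.8 CPM) and Alox5ap (124 CPM). That library had the highest macrophage sum of the 6 (3973 CPM against 2444 to 2740) and the lowest mast cell sum (8.78 CPM against 59.2 to 107), and their part in these values was not tested. In batch 1 Alox15 was high in mouse 4 at 10 weeks (1.10 CPM), Ltc4s low in mouse 1 at 14 weeks (8.35 CPM) and Tbxas1 low in mouse 4 at 6 weeks (33.9 CPM).

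In NOR, Alox5ap was high in mouse 4 at 6 weeks (59.8 CPM) and mouse 2 at 22 weeks (88.4 CPM), Hpgds high in mouse 4 at 22 weeks (31.0 CPM) and Ltc4s low in mouse 4 at 6 weeks (3.70 CPM). Alox5 at 21.9 CPM in mouse 5 at 18 weeks rests on 24 counts, in the library with 85.7% of its counts on 1 ribosomal RNA gene. The age change of Alox5ap in nonprogressors differed between the batches by -1.11 on the log2 scale.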

How the results depend on the processing

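Members called moved from 3 to 5 with DESeq2 for 14 against 6 weeks in batch 2, and from 5 to 2 for progressors within batch 1. The strain values of the members are a description, so no member calls are counted for them. Leaving out 1 mouse gave 1 to 2 members in nonprogressors of batch 1 (4 with all mice) and 2 to 7 in batch 2 (3 with all mice, 7 without mouse 5). With the mouse as a replicate block, the calls of Alox5ap in batch 1 (edgeR adjusted p = 0.078), Tbxas1 in batch 2 (0.067) and Ptgs2 in progressors (0.12) were lost, those of Alox5ap in batch 2 (0.047) and Alox15 in progressors (0.045) were gained, and no other member's call changed. Over all genes, NOR ages gave 1617 calls, 3509 with DESeq2, 2601 without the 18-week library of mouse 5, 655 with age as a linear term and 481 to 1488 without 1 mouse. Nonprogressors of batch 1 gave 2672, 4745 with DESeq2, 7334 with both batches and 409 to 1764 without 1 mouse. The change in batch 2 gave 6710 against 1286 in batch 1, the strains 1439, 2551 with DESeq2, 206 at 6 weeks and 881 to 1169 without 1 mouse, progressors 7574 against 3675 within batch 1, and later progression 0, 146 with DESeq2, 3 with RLE, 4 within batch 2 and 0 to 39 without 1 mouse.

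The sign of 43 of 402 values changed, on the log2 scale, and the cause was not tested. For nonprogressor ages, Alox5 was -0.051 with the mouse as a replicate block and -0.14 with linear age, and with both batches Alox5 was -0.39, Alox5ap -0.016 and Ltc4s -0.13. For 14 against 6 weeks taken in batch 1, Ptgs1 was 0.35, Ptgs2 0.41, Alox5 0.58, Alox5ap 0.63, Hpgds -0.78, Ptges 0.015 and Ltc4s 0.46. For the strains, Ltc4s was 0.0057 with DESeq2, 0.0058 with RLE, 0.010 without a filter and 0.0047 without the 18-week library of NOR mouse 5. Alox5ap was 0.00015 without a filter. With all NOD mice of batch 1, Alox5 was 0.085, Alox5ap 0.075 and Ltc4s 0.063, at 6 weeks only Ptgs2 was 0.26, Alox5 0.083, Hpgds 0.29 and Ltc4s 0.32, and without the 22-week samples Alox5 was 0.36, Alox5ap 0.12 and Ltc4s 0.41. For progressors, Alox5 was 0.0036 with DESeq2, 0.0035 with RLE and 0.30 within batch 1, where Ltc4s was 0.46, and within batch 2 Ptgs1 was -0.10, Alox5ap -0.074 and Hpgds 0.013. For progression at 6 weeks, Ptgs1 was -0.0027 and Alox5ap -0.0091 without the batch term, and Ptgs1 -0.046 within batch 1. For later progression, Ltc4s was 0.0087 without a filter, 0.076 without the batch term and 0.10 within batch 1, Ptgs2 -0.56 within batch 1, Alox15 -0.42 and Hpgds 0.076 within batch 2.

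Without 1 mouse, the following crossed 0. In batch 2 Hpgds ran from -0.12 to 0.22 and Ltc4s from -0.24 to 0.091, and in nonprogressors of batch 1 Alox5 from -0.44 to 0.27 and Ltc4s from -0.069 to 0.30. In progressors Alox5 ran from -0.14 to 0.12 and Ltc4s from -0.43 to 0.035. Between progressors and nonprogressors Ptgs1 ran from -0.053 to 0.21 at 6 weeks, and later Alox15 from -0.0069 to 0.48, Hpgds from -0.070 to 0.054 and Ltc4s from -0.042 to 0.071. Between the strains Alox5 ran from -0.17 to 0.069, Alox5ap from -0.038 to 0.037, Ltc4s from -0.13 to 0.078, Ptges from -0.062 to 0.14, Ptgs1 from -0.079 to 0.14 and Ptgs2 from -0.38 to 0.48. Alox15 and Ptgds were the members with libraries at 0, Alox15 in 1 library of each batch and Ptgds in 32 of 74 libraries of batch 1 and 18 of 46 of batch 2.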

Other observations

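Nonprogressors also gave 6 samples dated from implantation, 2 each at 31, 38 and 108 days, which enter no comparison. Alox15, the 15-lipoxygenase, was at 3.90 and 2.28 CPM at 31 days, 0.912 and 0.314 CPM at 38 days and 1.66 and 4.59 CPM at 108 days. Hpgds, the prostaglandin D synthase, was at 47.4 and 56.4 CPM, 62.1 and 44.7 CPM, and 71.2 and 63.9 CPM at these times. Ltc4s, the leukotriene C synthase, was at 11.1 and 10.3 CPM, 11.3 and 7.30 CPM, and 14.4 and 15.3 CPM. The eosinophil sums were 7.66 to 8.13 CPM at 31 days and 13.7 to 15 CPM at 108 days. Those at 38 days are not given here, so no trend over these times is read from them.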
